A study of Rattus norvegicus with 6 samples.

Results

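Matricellular proteins are secreted proteins of the extracellular matrix that regulate how cells attach, migrate and respond to growth factors, rather than bearing load themselves. The group studied here holds 10 genes chosen by their symbols: the thrombospondins Thbs1, Thbs2, Thbs3, Thbs4 and Comp, together with Postn (periostin), Sparc, Sparcl1, Tnc (tenascin-C) and Spp1 (osteopontin). All 10 were found, each on 1 row, among the 17093 genes listed for every library. RNA was sequenced from primary rat nucleus pulposus cells. These cells fill the soft centre of the intervertebral disc, and here they came from males and were at passages 3 to 6. The serum-starved group (3 libraries) was cultured without fetal bovine serum and the control group (3 libraries) with 10% serum, both for 48 h in DMEM-F12 medium, and no genetic change was labelled in either group. Whether libraries stem from different animals or dishes is not labelled, so the p-values reflect no more than library-to-library spread, which may be technical.

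Thrombospondins are calcium-binding glycoproteins that assemble into trimers (Thbs1 and Thbs2) or pentamers (Thbs3, Thbs4 and Comp), and they bind collagens, integrins and cell surface receptors such as CD47. Thbs1 is known for activating latent TGF-beta and, with Thbs2, for restraining blood vessel growth. Sparc binds collagen and calcium, and mice without it develop disc degeneration. Tenascin-C, periostin and osteopontin are best known from wounds, tendon, bone and inflamed tissue, where integrins read them.

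The deposited values are treated as FPKM (fragment numbers corrected for transcript length and sequencing depth), which allows levels of different genes to be set side by side. They summed to between 447788 and 473452 in serum-starved libraries and between 522165 and 530095 in control libraries, and the depth in reads is unknown. Of the labelled cell type's markers, Col2a1 and Krt18 stayed below 0.1 in every library, and 8 of 11 matched markers were high enough to test. The summed level of these 11 markers was 132.9 to 141.2 in serum-starved and 269.6 to 313.4 in control libraries, a sum that Slc2a1 and Acan dominate in controls. Its members moved apart: Acan, Sox9, Krt8, Foxf1, Car12 and Slc2a1 fell, Car12 being at 1 or more in control libraries alone, while Car3 (26.1 ± 0.85 in serum-starved and 1.03 ± 0.22 in control cells, SD, n = 3 each) and Pax1 (51.2 ± 5.02 in serum-starved and 27.5 ± 3.43 in control cells) rose. Markers of other cells that such a culture could hold were read as well. Those of pericytes and smooth muscle summed to 149.6 to 169.7 in serum-starved and 278.5 to 310.6 in control libraries, with members that moved apart. The annulus and tendon fibroblast markers summed to 3056 to 3092 in serum-starved and 2670 to 2999.6 in control libraries, most of it Col1a1, while Mkx rose (10.6 ± 0.47 in serum-starved and 3.60 ± 0.46 in control cells, SD, n = 3 each) and Thy1 fell (297 ± 33.7 in serum-starved and 921 ± 56.8 in control cells). Endothelial markers (4 matched) summed to at most 0.81 in serum-starved and 1.19 in control libraries, and platelet markers (3 matched) to at most 0.33 in serum-starved and 0.15 in control libraries. As these are bulk libraries, fewer cells of a type and less RNA per cell cannot be told apart.

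The stretches of 250 bases before the start sites are shown for Thbs1 and Sparc, the most abundant genes of the group that rose. They are also shown for Thbs4 and Spp1, which fell, because the gene group moved in opposite directions. Thbs4 was not chosen by level: Tnc also fell and was more abundant, and its stretch, which holds no GGAATG, is not shown. The sequences are from RefSeq on the rat build GRCr8, written 5′ to 3′ on the gene's strand, and this build is not necessarily that behind the expression values. Capitals mark letters of the searched motifs on either strand: the TEAD factor core GGAATG, the TATA box letters TATAAA, the NF-Y core CCAAT, the AP-1 type site TGANTCA and the CArG box of serum response factor.
Thbs1 (chr3:125510000-125510249, plus strand): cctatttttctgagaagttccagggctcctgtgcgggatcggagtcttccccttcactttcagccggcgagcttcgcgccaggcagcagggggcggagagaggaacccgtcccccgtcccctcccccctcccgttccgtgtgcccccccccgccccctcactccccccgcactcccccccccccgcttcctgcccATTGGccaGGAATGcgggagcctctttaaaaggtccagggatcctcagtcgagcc
Sparc (chr10:40038817-40039066, minus strand): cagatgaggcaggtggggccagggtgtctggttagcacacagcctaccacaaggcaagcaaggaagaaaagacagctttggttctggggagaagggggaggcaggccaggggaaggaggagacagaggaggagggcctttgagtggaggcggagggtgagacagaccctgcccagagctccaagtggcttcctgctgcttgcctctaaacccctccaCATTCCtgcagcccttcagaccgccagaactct
Thbs4 (chr2:25760346-25760595, minus strand): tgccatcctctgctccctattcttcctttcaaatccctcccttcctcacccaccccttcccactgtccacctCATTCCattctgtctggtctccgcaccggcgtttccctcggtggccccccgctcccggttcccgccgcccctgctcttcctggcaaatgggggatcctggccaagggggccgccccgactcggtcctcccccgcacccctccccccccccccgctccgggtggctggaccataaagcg
Spp1 (chr14:5619805-5620054, minus strand): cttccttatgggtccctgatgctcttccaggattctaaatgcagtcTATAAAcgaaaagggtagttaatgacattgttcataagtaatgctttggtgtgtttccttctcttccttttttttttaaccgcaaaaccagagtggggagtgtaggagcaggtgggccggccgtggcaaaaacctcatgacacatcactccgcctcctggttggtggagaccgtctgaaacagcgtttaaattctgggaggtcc
Promoters of 9 of the 10 genes were available. That of Thbs2 was missing, so Thbs2 was not searched for any motif. GGAATG was found in 3 of these 9, in Thbs1, Thbs4 and Sparc, beginning 47, 178 and 33 bases before the start site, whereas 12.1% of 33469 rat promoters of that length hold it. The motif was thus present upstream of genes that rose and of 1 that fell. TATAAA was found in Postn, Tnc and Spp1, beginning 44, 208 and 204 bases before the start (12.9% of promoters), and CCAAT in Thbs1 and Thbs3 (34.0%). Only these exact letters were searched, so variants of a TATA box were not counted. Whether any hit is in use was not tested. The capitals of the Thbs1 stretch show that its CCAAT, read on the opposite strand, and its GGAATG do not overlap. No TGANTCA (6.34% of promoters) and no CArG box (1.5%) was found in these 9 windows.

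The first comparison asks which genes of the group differed after serum withdrawal. In serum-starved cells Thbs1, Thbs2, Thbs3, Postn and Sparc were higher, and Thbs4, Tnc and Spp1 were lower. Comp and Sparcl1 were close to 0 in both groups and were not tested. These 8 tested genes had a value of at least 1 in every library, so none entered the test through 1 group alone. Differences were tested with limma on log2(value + 1) across 11493 genes, and the threshold for a call was 0.05 on the p adjusted by the method of Benjamini and Hochberg. The 8 tested genes were all called, 5 higher and 3 lower, against 61.1% of all tested genes called in either direction, 31.7% higher and 29.4% lower. The 2 groups of libraries did not overlap for any of the 8 genes, which was also so for 68.2% of all tested genes, so neither count sets the group apart from the transcriptome. A change of at least 2-fold on the log2(value + 1) scale was reached by 4 of the 8 (Thbs1, Thbs2, Postn and Spp1), against 11.3% of all tested genes. The median log2 fold change was 0.56 over the 8 genes and 0.03 over all tested genes. When every library was scaled to the same sum, the median of all genes moved to 0.20 and the calls to 5303 higher and 2327 lower (69.5% higher), against 3640 and 3384 (51.8% higher) on the deposited scale. The 8 genes kept their directions and their calls under that scaling.

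**Figure D1:**
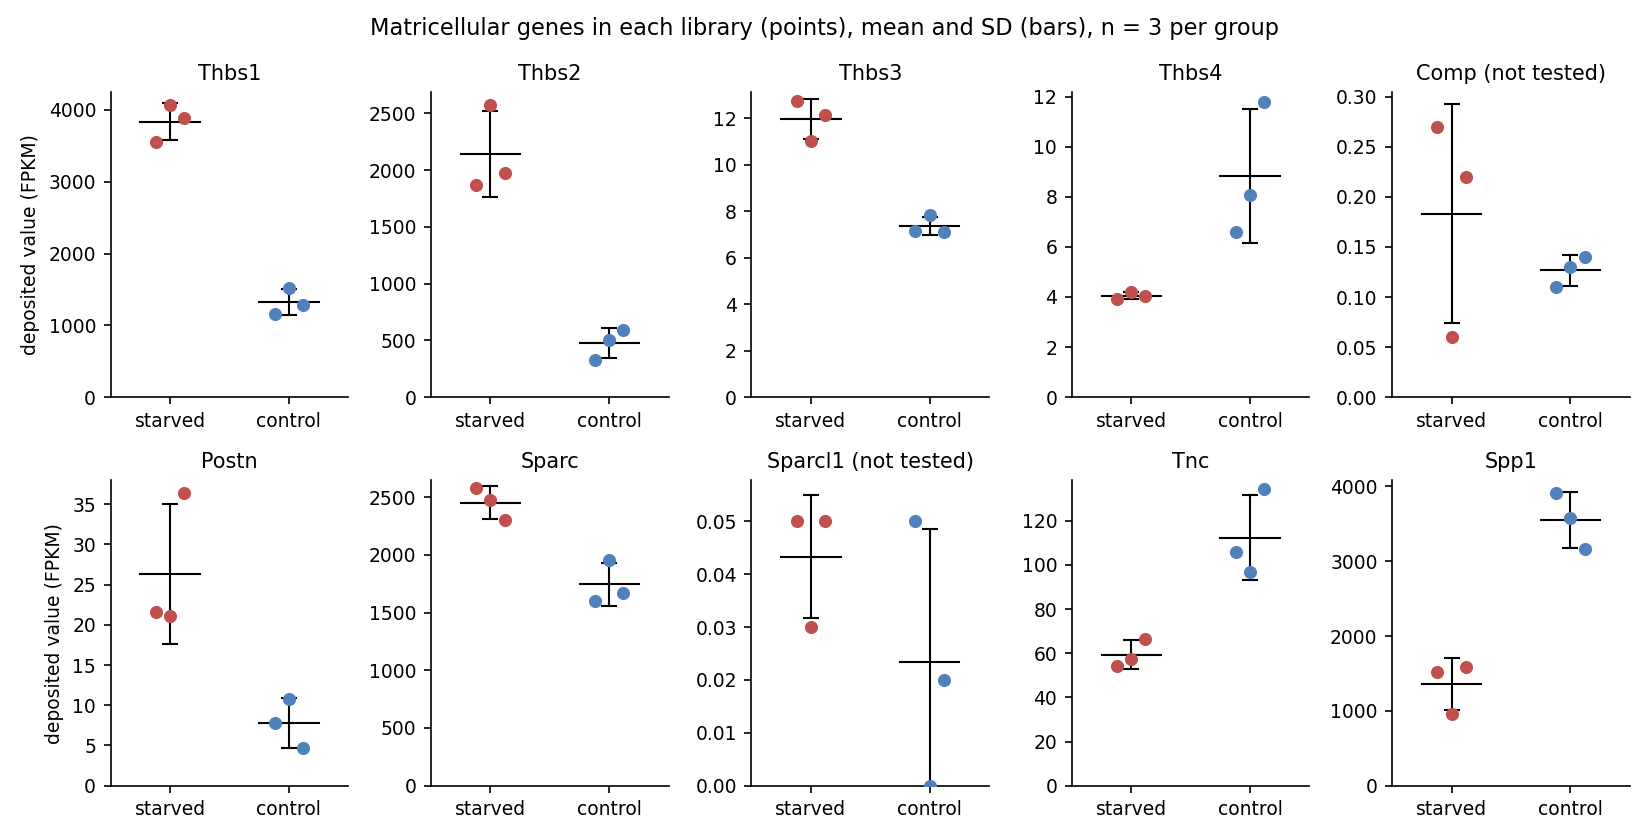
Deposited value (FPKM, linear axis from 0) of each of the 10 genes in the serum-starved (left, red) and control (right, blue) libraries. Points are libraries and bars are mean and SD (n = 3 per group). The 2 groups are separate for 8 genes and overlap for Comp and Sparcl1, whose values are below 0.3.

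Thbs1 (gene ID 445442), the trimeric thrombospondin that binds CD47 and activates latent TGF-beta, was among the most abundant transcripts. Its values were 3552, 4069.9 and 3893 in serum-starved libraries, against 1165, 1518 and 1285 in control libraries. The lowest serum-starved library was more than 2-fold above the highest control library. The mean was 3838 ± 263 in serum-starved and 1323 ± 179.8 in control cells (SD, n = 3 each), a ratio of 2.90. The log2 fold change was 1.54 ± 0.11 (SE), with a limma Benjamini-Hochberg adjusted p = 1.01e-05. Among the 17093 listed genes Thbs1 ranked 6, 3 and 4 in serum-starved libraries, and 51, 36 and 45 in control libraries.

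Thbs2 (gene ID 292406), the other trimeric thrombospondin, which is known for restraining vessel growth and for shaping collagen fibrils, had the largest change of the group. Values of 1873, 2577 and 1973 in serum-starved libraries stood against 331.6, 501.9 and 596 in control libraries. Serum-starved replicate 2 was the highest of all and control replicate 1 the lowest, and the groups lay far apart. Means were 2141 ± 381 in serum-starved and 476.5 ± 134 in control cells (SD, n = 3 each), 4.49-fold higher in serum-starved cells. The log2 fold change was 2.19 ± 0.21 (SE; limma, Benjamini-Hochberg adjusted p = 4.87e-05). Its rank was 19, 10 and 18 in serum-starved libraries and 245, 176 and 147 in control libraries.

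Within a library, Thbs1 exceeded Thbs2 in all 6 cases, but by less in serum-starved cells. The ratio of Thbs1 to Thbs2 was between 1.58 and 1.97 in serum-starved and between 2.16 and 3.51 in control libraries. On the log2(value + 1) scale the ratio differed by -0.65, with 0.85 ± 0.17 in serum-starved and 1.504 ± 0.36 in control cells (SD, n = 3 each). The groups did not overlap, and the two-sided exact permutation p of 0.1 is the smallest that 3 against 3 libraries can give. After quantile normalization this difference was -0.46 (exact p = 0.3). Together the 2 genes held 1.31 ± 0.17% of the summed values in serum-starved and 0.343 ± 0.050% in control libraries (SD, n = 3 each).

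The pentameric thrombospondins were far less abundant than the trimeric ones in every library, and they moved in different directions. Thbs3 (gene ID 681309), which takes part in skeletal growth in mice, had 12.7, 11.03 and 12.1 in serum-starved libraries, against 7.15, 7.82 and 7.12 in control libraries. The replicates were tight and the groups separate. The ratio of means was 1.63, and the log2 fold change 0.63 ± 0.081 (SE; limma, Benjamini-Hochberg adjusted p = 0.000242). Thbs4 (gene ID 29220), a thrombospondin of tendon and muscle matrix, fell to 3.92, 4.19 and 4.05 in serum-starved libraries, against 6.58, 8.09 and 11.8 in control libraries. The serum-starved replicates nearly coincided, whereas the control replicates were spread out, with control replicate 3 on top. Means were 4.05 ± 0.13 in serum-starved and 8.82 ± 2.68 in control cells (SD, n = 3 each), 2.18-fold lower in serum-starved cells (log2 fold change -0.92 ± 0.17 SE, limma Benjamini-Hochberg adjusted p = 0.00174). The ratio of Thbs3 to Thbs4 was 2.63 to 3.25 in serum-starved and 0.604 to 1.09 in control libraries, without overlap (exact permutation p = 0.1, two-sided, the smallest possible). Comp (gene ID 25304), the cartilage oligomeric matrix protein, was at 0.27, 0.06 and 0.22 in serum-starved and 0.11, 0.13 and 0.14 in control libraries. The groups overlapped, and all values were below the filter.

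Sparc (gene ID 24791), the collagen-binding glycoprotein also called osteonectin, was abundant throughout and had the smallest log2 fold change of the called genes on the deposited scale (after quantile normalization that of Thbs3 was smaller, at 0.63 against 0.69). It had 2581, 2471 and 2302 in serum-starved libraries, against 1603, 1958 and 1669.5 in control libraries. All serum-starved libraries lay above all controls, with control replicate 2 the nearest. The means were 2451 ± 140.2 in serum-starved and 1743 ± 188.5 in control cells (SD, n = 3 each), a ratio of 1.41, with a log2 fold change of 0.50 ± 0.098 (SE; limma, Benjamini-Hochberg adjusted p = 0.00256). Sparcl1 (gene ID 25434), or hevin, its closest relative, had 0.05, 0.03 and 0.05 in serum-starved and 0.05, 0 and 0.02 in control libraries. Sparc was therefore the only one of the pair with values above the filter, although a value near 0, as for Sparcl1, can be a failed estimate. With Sparcl1 near 0, the log2 ratio of Sparc to Sparcl1 follows Sparc alone, and it differed by 0.47 (exact permutation p = 0.1, two-sided).

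Postn (gene ID 361945) encodes periostin, a fasciclin-domain protein of the matrix. It had 21.5, 21.0 and 36.4 in serum-starved libraries, against 7.81, 10.8 and 4.64 in control libraries. Serum-starved replicate 3 stood above the other replicates of its group, and the lowest serum-starved value was still above the highest control. The log2 fold change was 1.66 ± 0.28 (SE), the widest error of the 8 genes (limma, Benjamini-Hochberg adjusted p = 0.00116). Within the control group its coefficient of variation was 39.8%, against 5.37% for Thbs3, the lowest among the tested genes.

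Tnc (gene ID 116640) encodes tenascin-C, a large multi-armed protein that counters firm adhesion to fibronectin. Its values were 54.2, 57.3 and 66.6 in serum-starved libraries, against 106, 96.9 and 134 in control libraries. No serum-starved library reached the lowest control. The mean was 1.89-fold lower in serum-starved cells, with a log2 fold change of -0.90 ± 0.13 (SE; limma, Benjamini-Hochberg adjusted p = 0.000396).

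Spp1 (gene ID 25353) encodes osteopontin, an integrin-binding phosphoprotein of bone and of inflamed tissue. Its values were 1525, 963.5 and 1586 in serum-starved libraries, against 3916, 3579 and 3159.9 in control libraries. Serum-starved replicate 2 was the lowest, and the same library had the highest Thbs1 and Thbs2. Means were 1358 ± 343 in serum-starved and 3552 ± 379 in control cells (SD, n = 3 each), 2.62-fold lower in serum-starved cells, with a log2 fold change of -1.42 ± 0.19 (SE; limma, Benjamini-Hochberg adjusted p = 0.000278). Its rank among the listed genes was 26, 43 and 20 in serum-starved and 8, 9 and 10 in control libraries. Macrophages and osteoblasts also make osteopontin. Of 6 matched macrophage markers, Adgre1 and Cd163 stayed below 0.1 in every library, Csf1r reached at most 0.1 in serum-starved and 0.25 in control libraries, and the summed level of the 6 was 10.7 to 14.3 in serum-starved and 23.5 to 29.9 in control libraries, most of it Cd14. The members moved apart: Cd14 fell, at 8.54 ± 1.86 in serum-starved and 24.8 ± 2.85 in control cells, while Cd68 rose, at 3.38 ± 0.60 in serum-starved and 1.96 ± 0.47 in control cells (SD, n = 3 each), and Lyz2 was at 0.12 to 0.18 in serum-starved libraries and listed at 0 in the controls. The 6 osteoblast markers summed to 6.16 to 6.44 in serum-starved and 13.9 to 15.1 in control libraries, a gap that is mostly Ibsp, with Sp7 and Dmp1 below 0.1 in every library. The part of these cells in the fall of Spp1 was not tested.

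**Figure D2:**
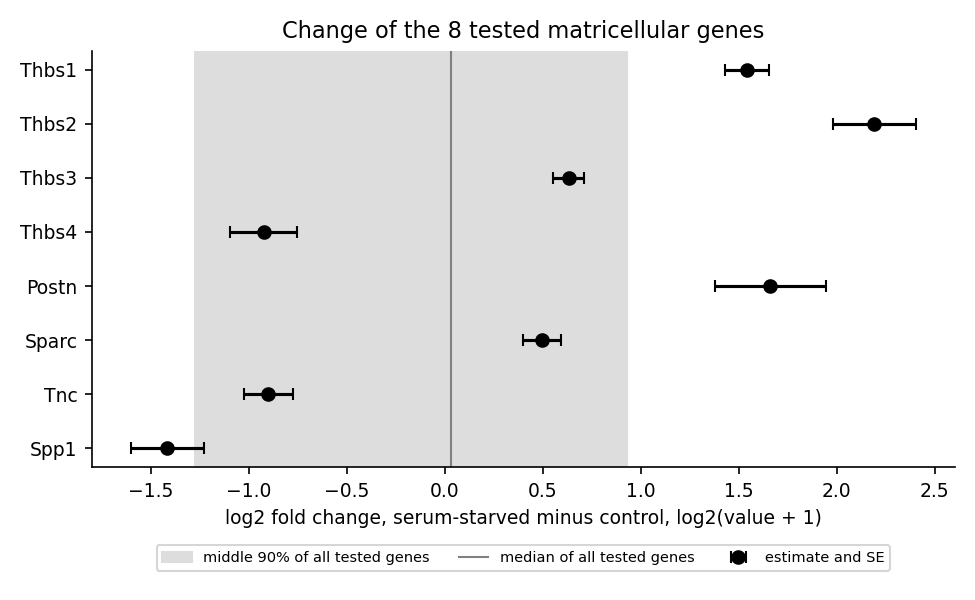
Log2 fold change (serum-starved minus control, log2(value + 1) scale) of the 8 tested genes with its SE. The grey band holds the middle 90% of all 11493 tested genes, from -1.28 to 0.93, and the line is their median. Thbs1, Thbs2 and Postn lie above the band and Spp1 below it, while Thbs3, Thbs4, Sparc and Tnc lie inside.

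The order of the levels differed between the groups. In serum-starved cells it ran Thbs1, Sparc, Thbs2, Spp1, Tnc, Postn, Thbs3, Thbs4, Comp and Sparcl1 by mean, and only the neighbours Sparc and Thbs2 overlapped, Sparc being above Thbs2 in 2 of 3 libraries. In control cells the order was Spp1, Sparc, Thbs1, Thbs2, Tnc, Thbs4, Postn, Thbs3, Comp and Sparcl1. There, Thbs4 and Postn overlapped, as did Postn and Thbs3. Spp1 led in every control library, and Thbs1 led in every serum-starved library. The ratio of Thbs1 to Spp1 was 2.33 to 4.22 in serum-starved and 0.297 to 0.424 in control libraries. The 10 genes together held 2.16 ± 0.12% of the summed values in serum-starved and 1.38 ± 0.067% in control libraries (SD, n = 3 each), without overlap (exact permutation p = 0.1, two-sided).

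**Figure D3:**
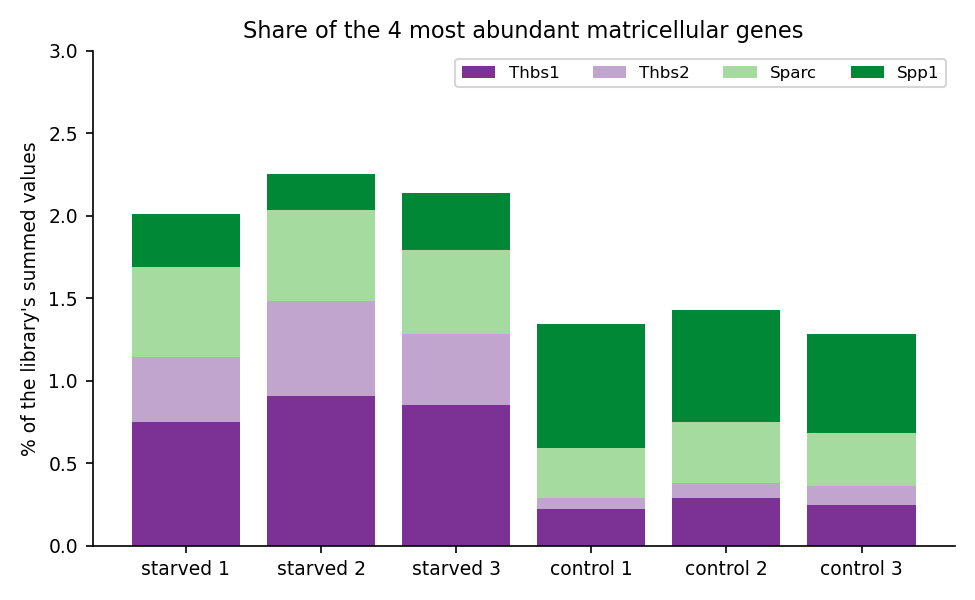
Share of each library's summed values (percent, bars from 0) held by Thbs1, Thbs2, Sparc and Spp1, with the 3 serum-starved libraries on the left and the 3 control libraries on the right. Thbs1 takes 0.750 to 0.909% in serum-starved and 0.223 to 0.286% in control libraries, while Spp1 takes 0.215 to 0.347% in serum-starved and 0.605 to 0.7495% in control libraries.

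Genes with a profile across the 6 libraries closest to the strongest changes were found by the root mean square distance between log2(value + 1) profiles centred on their means. For Thbs2 they were Btc (betacellulin, an EGF family ligand; distance 0.13) and Lims2 (an adaptor of focal adhesions; 0.13). Btc had 5.02, 9.4 and 5.01 in serum-starved libraries and 0.13, 0.76 and 1.18 in control libraries. The log2(value + 1) scale understates the change of so low a gene, so its nearness to Thbs2 holds on that scale only. Of the control libraries only replicate 3 reached 1 for Btc. It thus passed the filter through the serum-starved libraries, and its place beside Thbs2 supports nothing. Lims2 had 59.5, 69.8 and 73.1 in serum-starved libraries and 10.0, 15.9 and 19.3 in control libraries. For Thbs1 they were Bcl2l14 (a BCL2 family gene; 0.070) and Thrb (a thyroid hormone receptor; 0.085). Thrb had 4.51, 5.2 and 4.78 in serum-starved libraries and 0.65, 0.99 and 0.97 in control libraries. It reached the filter through the serum-starved libraries alone, so its place beside Thbs1 supports nothing. For Postn the nearest were Pik3ip1 (an inhibitor of PI3 kinase; 0.31) and Abca9 (a membrane transporter; 0.31), at larger distances.

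Relatives of the group were read next. Of 18 listed relatives, 15 were matched and 7 were high enough to test. Fstl1, Tnn and Thsd7a rose, Smoc2, Tgfbi and Ibsp fell, and Spon2 was not called (median log2 fold change -0.29). These counts of 3 and 3 compare with 31.7% and 29.4% of all tested genes. Ibsp, bone sialoprotein and a relative of osteopontin, had 0.46, 0.61 and 0.99 in serum-starved libraries, against 8.16, 7.62 and 7.05 in control libraries. It reached the filter through the control libraries alone, so it could enter the test only where it differed, and its place among the falls supports nothing. Smoc2, a calcium-binding member of the SPARC family, had 19.8, 19.8 and 18.0 in serum-starved libraries, against 116, 118 and 75.6 in control libraries, so it moved opposite to Sparc (log2 fold change -2.34 ± 0.16 SE, limma Benjamini-Hochberg adjusted p = 6.52e-06). Tnn, tenascin-W, moved opposite to Tnc. It had 172.7, 392.8 and 212.5 in serum-starved libraries, against 54.5, 110.6 and 114.3 in control libraries (log2 fold change 1.45 ± 0.35 SE, limma Benjamini-Hochberg adjusted p = 0.00664). Serum-starved replicate 2 stood far above the others. Tgfbi, the closest relative of periostin, was 2.05-fold lower at 474 ± 77.8 in serum-starved and 972 ± 31.9 in control cells (SD, n = 3 each), while Postn rose. Thsd7a, a membrane protein with thrombospondin type repeats, averaged 5.89 ± 0.97 in serum-starved and 1.92 ± 0.22 in control cells (SD, n = 3 each).

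Receptors of these proteins were lower in most called cases. Among 21 listed receptors 15 were tested, of which 9 fell, 3 rose and 3 were not called. Their median log2 fold change was -0.37. In all 80% were called, against 61.1% of all tested genes, where 29.4% were lower and 31.7% higher. Under equal library sums 7 fell and 4 rose. Cd47, Lrp1 and Calr rose. All 3 bind thrombospondins, Cd47 as a membrane receptor and Lrp1 with Calr as a signalling and uptake complex. The 9 receptors that fell include Cacna2d1, Itgb1, Sdc1 and Sdc4 (log2 fold changes -0.37, -0.26, -0.64 and -1.33). The list was not divided by ligand, so no rise of thrombospondin receptors as a set was shown. Cd47 had 88.0, 91.6 and 88.0 in serum-starved libraries, against 59.7, 59.3 and 61.6 in control libraries (log2 fold change 0.56 ± 0.056 SE, limma Benjamini-Hochberg adjusted p = 6.38e-05). Cd36, another thrombospondin receptor, stayed at or below 0.08 in every library. The largest falls were in the laminin-binding integrin subunits Itga6 and Itga3, which averaged 9.03 ± 1.47 and 97.9 ± 10.5 in serum-starved cells, against 48.3 ± 11.5 and 462 ± 21.5 in control cells (SD, n = 3 each). Anxa2, a cell surface ligand of tenascin-C, was 3.30-fold lower. Cd44, a receptor of hyaluronan and osteopontin, had 102, 92.9 and 88.1 in serum-starved libraries, against 262, 244.6 and 227 in control libraries (log2 fold change -1.36 ± 0.080 SE, limma Benjamini-Hochberg adjusted p = 3.15e-06). The integrin subunit Itgb3 stayed below 0.1 throughout, while its partner Itgav, at 77.9 ± 1.52 in serum-starved and 72.9 ± 2.70 in control cells (SD, n = 3 each), was not called (limma, Benjamini-Hochberg adjusted p = 0.181).

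Matrix partners of the group mostly rose where they were measurable: 5 of 8 tested genes rose (Fn1, Lox, Bmp1, Col1a1 and Dcn), Acan fell and 2 were not called (median log2 fold change 0.65). In all 75% of them were called, against 61.1% of all tested genes, where 31.7% were higher. Under equal library sums 7 rose, and without serum-starved replicate 2 the count was 6. The cartilage partners Col2a1, Col9a1, Col9a2, Col9a3, Matn1 and Matn3 were below the filter. Bmp1 (a procollagen protease) and Lox (lysyl oxidase) rose, as did Postn, and a link between them was not tested. Bmp1 had 41.1, 42.5 and 45.0 in serum-starved libraries, against 19.3, 21.6 and 19.8 in control libraries (log2 fold change 1.05 ± 0.070 SE, limma Benjamini-Hochberg adjusted p = 6.09e-06). Lox averaged 1304 ± 61.7 in serum-starved and 614 ± 43.1 in control cells (SD, n = 3 each). Dcn, the collagen-binding proteoglycan decorin, had 226, 206.8 and 286.5 in serum-starved libraries, against 19.1, 16.5 and 44.3 in control libraries. Acan (aggrecan) was at 3.27, 2.67 and 3.22 in serum-starved libraries, against 82.6, 102.8 and 47.2 in control libraries, and control replicate 3 was thus nearest to the serum-starved libraries for both genes.

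Among 10 listed enzymes that cleave these proteins 7 were tested, of which 2 rose (Mmp2 and Mmp14), 0 fell and 5 were not called, or 28.6% called against 61.1% of all tested genes. This low share depends on the settings: 3 rose under equal library sums, quantile normalization and library weights and without serum-starved replicate 2, and with the replicate number as a block 3 rose and 1 fell. Mmp2, gelatinase A, which Thbs2 helps to clear from the cell surroundings in mice, had 210.7, 180.9 and 250.4 in serum-starved libraries, against 35.4, 33.4 and 43.7 in control libraries (log2 fold change 2.48 ± 0.13 SE, limma Benjamini-Hochberg adjusted p = 2.1e-06). Its activator Mmp14 averaged 299 ± 28.7 in serum-starved and 219 ± 12.1 in control cells (SD, n = 3 each). The thrombospondin-cleaving Adamts1 had means of 325 ± 48.1 in serum-starved and 336 ± 79.6 in control cells (SD, n = 3 each), and Adamts7 and Adamts12, which cleave Comp, were not called either. At an unadjusted p of 0.05 the count of falls was also 0, and Adamts7 (log2 fold change -0.20 ± 0.094 SE, limma Benjamini-Hochberg adjusted p = 0.0937) was called lower without control replicate 2, with an adjusted p = 0.0473.

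**Figure D4:**
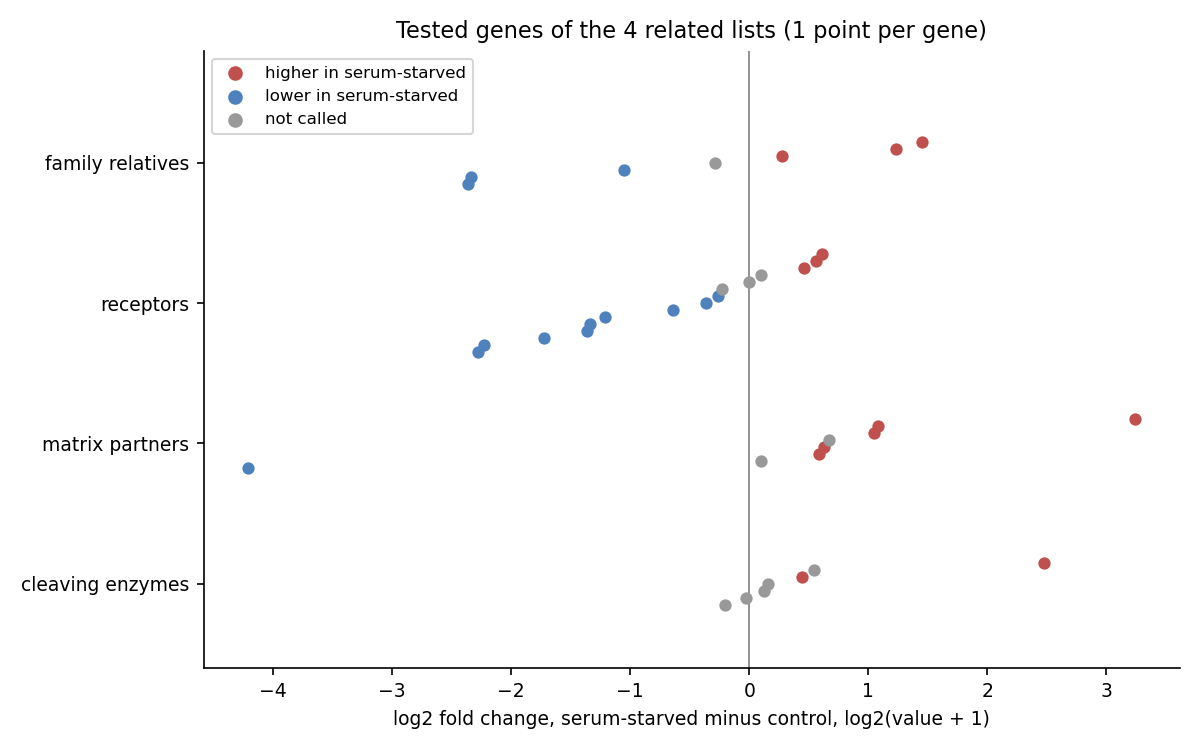
Log2 fold change (serum-starved minus control, log2(value + 1) scale) of the tested genes of 4 lists, 1 point per gene, red where called higher, blue where called lower and grey where not called. Receptors lie mostly left of 0 and matrix partners mostly right of it, and Acan is the point farthest to the left at -4.21.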

How the data were processed

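Libraries were made from rRNA-depleted, heat-fragmented total RNA with random priming, per the labels' protocols. The submitters' processing notes list, with no roles, limma, DESeq2, StringTie, HISAT2 and bcl2fastq 2.0. They name the mouse build mm10, although the gene identifiers are rat ones (15927 of 17093 matched a rat RefSeq gene of GRCr8). The deposited values carry no unit and are treated as FPKM made by the authors. The handling of strand and of multi-mapping fragments is not given in the sources used, so overlapping antisense reads cannot be told apart. No counts are given, so the depth is unknown and no counting interval is stated. Hprt1, a gene that every cell uses, had 12.4, 10.9 and 8.59 in serum-starved libraries and 0.15, 0 and 0 in control libraries, so a value near 0 can be a failed estimate, and such failures can differ between the groups.

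The test took genes that reached 1 in 3 or more of 6 libraries (11493, leaving out 5600) with limma 3.58.1 in R 4.3.3 on log2(value + 1), with an intensity trend, treatment as the only term and Benjamini-Hochberg adjustment over all tested genes. That scale understates changes of low genes. Single ratios used two-sided exact permutation tests (Python 3.11.15, scipy 1.17.1). The genes and lists were chosen with earlier results of these data known. Named were the 10 genes, up to 4 called genes per list with the largest change, separate groups and a mean that reached 5 in 1 group, and the 2 nearest profiles of the 3 strongest changes. Other list members were named after their values were seen. Alternatives covered the pseudocount, the filter, scaling, trend, weights, a block and left-out libraries. The unmatched markers were not analysed here, and the erythroid list had 1 matched marker, Alas2, at no more than 0.03. The pericyte and smooth muscle list (6 matched) summed to 149.6 to 169.7 in serum-starved and 278.5 to 310.6 in control libraries. Its members moved apart: Des (log2 fold change -3.20) and Cspg4 (-1.50) fell, Pdgfrb (0.90) and Myh11 (0.43) rose, Cnn1 was not called and Rgs5 was not tested.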

Additional observations from a re-analysis of the deposited data

How the results depend on the processing

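The 8 tested genes kept their direction and their call under all 15 alternatives each. The log2 fold change ranged from 1.44 to 1.92 for Thbs1, 1.95 to 2.39 for Thbs2, 0.59 to 0.81 for Thbs3, -1.09 to -0.72 for Thbs4, 1.38 to 1.91 for Postn, 0.38 to 0.69 for Sparc, -0.9996 to -0.71 for Tnc and -1.54 to -1.10 for Spp1, and the highest adjusted p was 0.0167 (Sparc, no filter). The difference between groups (serum-starved minus control) in the Thbs1 to Thbs2 log2 ratio lay between -0.85 (without control replicate 3) and -0.46. That difference in the Sparc to Sparcl1 log2 ratio was 0.26 with a pseudocount of 0.1 (exact permutation p = 0.5). The count of cleaving enzymes that fell, 0 on the deposited scale, was 1 (Adamts7) with the replicate number as a block, with an adjusted p = 0.0459, when 3 of these enzymes rose against 2 on the deposited scale, and between 0 and 1 when single libraries were left out. Under the block, 3508 genes were higher and 3293 lower. Deviations of same-numbered libraries correlated at 0.037, -0.162 and 0.101 over 11493 genes, and 1 of 3 serum-starved libraries correlated best with its own number, so no pairing was shown, and the block changed no other call among the 10 genes. Without any 1 control library Ibsp was not tested, since fewer than 3 libraries reached a value of 1. With 3 libraries a group, no outlier test was made. With the depth unknown, the error of values below 1, such as those of Comp and Sparcl1, cannot be stated.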
